A study of Danio rerio with 4 samples.

Results

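The genes of axon regrowth and of the tubulin cytoskeleton described here are 9 zebrafish genes: the transcription factor genes *klf6a* and *sox11b*, the growth cone gene *gap43*, the alpha tubulin genes *tuba1a*, *tuba1b*, *tuba8l* and *tuba8l3*, and the beta tubulin genes *tubb2b* and *tubb5*. They are 9 of the 2075 distinct genes listed in the deposited tables, and were chosen by their symbols with earlier results of these data known. The tables hold only entries that passed the filter given below, so each of the 9 had already passed it in some comparison. Whole retinae of wild-type fish 10 months old were sequenced as total RNA at 12 hours after injury (12 hpi), at 4 days after injury with immersion in 100 µM valproic acid for those 4 days (4 dpi + VPA), at 4 days after injury without it (4 dpi), and without injury. Valproic acid (VPA) is an inhibitor of histone deacetylases. The sources used here do not say how the injury was made. The design text speaks of duplicates, but the tables hold 1 value per gene or transcript and group, so no difference below has a replicate check, and sequencing depth is unknown.

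Retinal ganglion cells send their axons through the optic nerve to the brain, and in zebrafish, unlike in mammals, these axons regrow after injury. A regrowing axon needs transcription factors that switch the neuron to a growth state, proteins of the growth cone such as Gap43, and a supply of alpha and beta tubulin, which pair to form microtubules. In the injured zebrafish retina *tuba1a* has a second known place of expression, the dividing progenitors that arise from Müller glia, so a whole-retina level does not say which cell made the RNA.

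The tables list only entries with an unadjusted p of at most 0.05 and more than 1 FPKM in the higher group (FPKM is fragments scaled to length and to the mapped fragments). The 4 dpi tables are per gene, and those of 12 hpi and 4 dpi + VPA per transcript. For genes annotated with 1 transcript the uninjured value was identical between the tables, in 94 of 94 genes shared by 4 dpi and 12 hpi and in 342 of 342 shared by 4 dpi and 4 dpi + VPA. Of the 9 genes, *klf6a* and *tuba1b* have 2 transcripts, and only for these does the level of the table change the uninjured value.

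At 12 hpi 3 of the 9 genes were listed, *gap43*, *klf6a* and *tuba8l*, all higher than in uninjured retina, where 63.6% of the 599 genes listed were higher. At 4 dpi + VPA 7 of the 9 were listed, all higher, against 57.4% of 1036 genes. At 4 dpi all 9 were listed and higher, against 60.3% of 1434 genes. Because the 9 were picked from listed genes with earlier results known, these counts and the medians below are a description and not a test. The authors marked 2 of the 9 significant, *sox11b* and *tubb5* at 4 dpi, where 2.79% of the genes listed were marked as higher. No gene was marked higher at 12 hpi or at 4 dpi + VPA (0% in each), and the lowest q-value in those transcript tables was 0.0717, while it was 0.0421 in the gene tables, so the marks cannot be compared between groups. The median log2 fold change of the listed genes among the 9 was 3.23 at 12 hpi, 2.94 at 4 dpi + VPA and 3.55 at 4 dpi. Over all entries listed higher with a finite value it was 2.73, 2.54 and 2.61 in the same order. Those medians leave out entries at 0 FPKM in uninjured retina. With 0.1 FPKM added to both values, all genes listed higher had medians of 3.24, 2.74 and 2.66 in that order. The listed genes among the 9 then had 3.20, 2.92 and 3.51, so at 12 hpi they were not above the others.

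**Figure D1:**
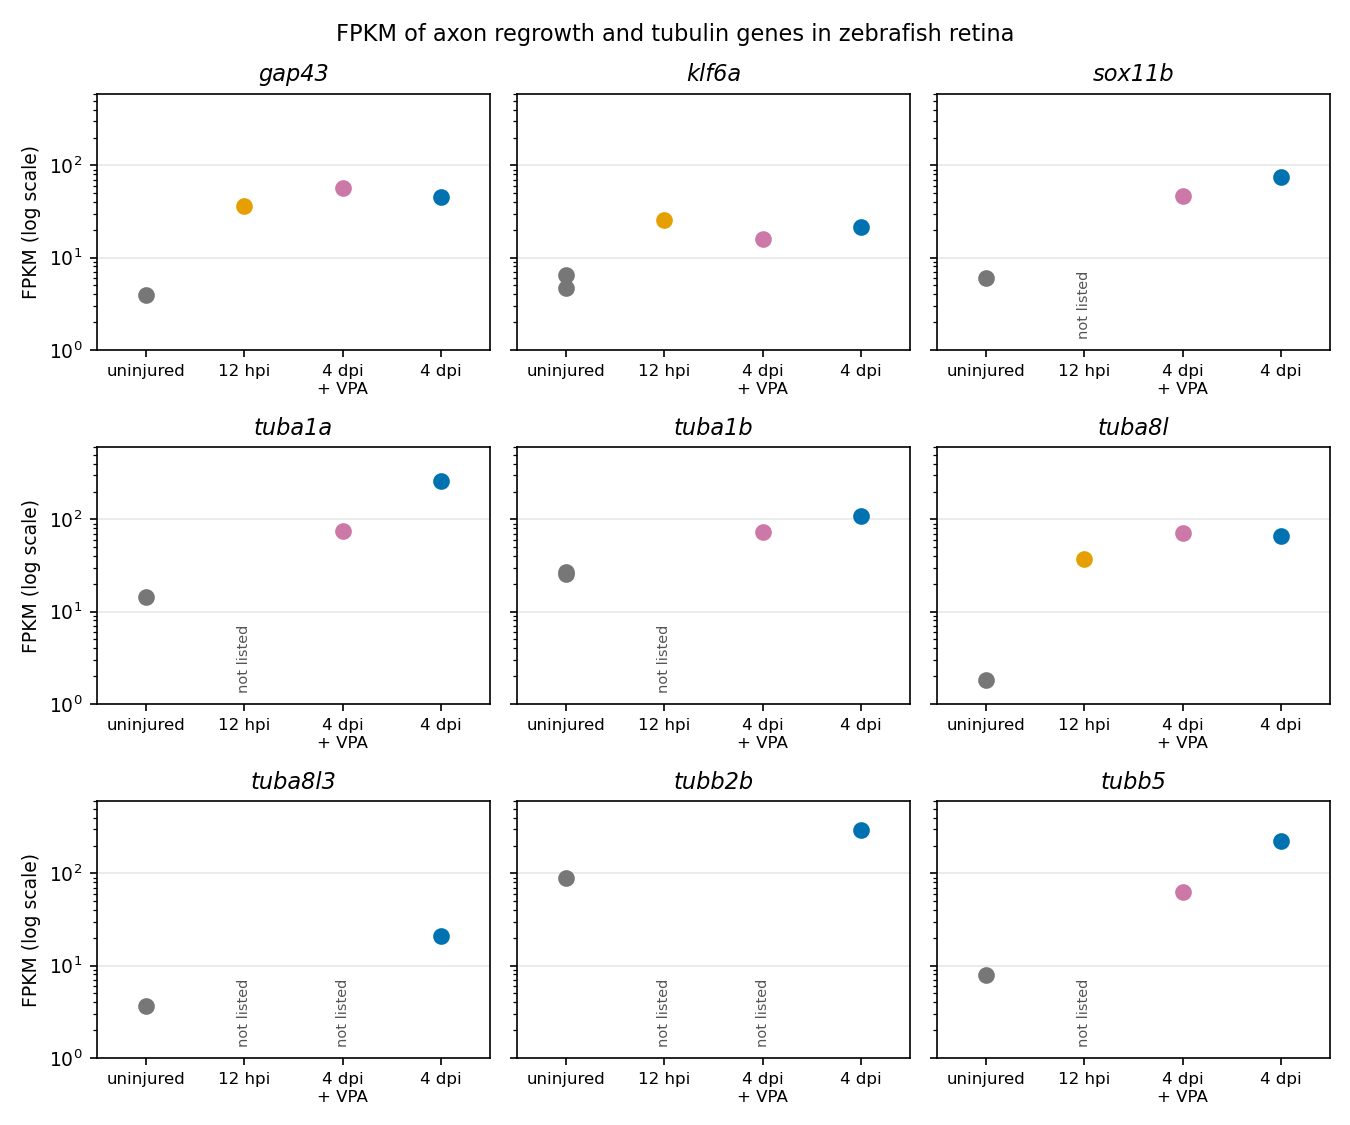
FPKM (log axis) of each of the 9 genes in uninjured retina, at 12 hpi, at 4 dpi + VPA and at 4 dpi; each point is the 1 value the authors deposited, a pair of uninjured points is the transcript and the gene value, and "not listed" means that the gene was not in that comparison's tables. All 9 genes are highest in an injured group, with *tuba8l* at 70.3 FPKM at 4 dpi + VPA and 1.82 FPKM without injury, and *tubb2b* at 292 FPKM at 4 dpi and 88.7 FPKM without injury.

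Of the transcription factors, *klf6a* encodes a Krüppel-like zinc finger factor known to take part in axon regrowth from zebrafish retinal ganglion cells. It lies on chromosome 24 of GRCz10 from 4109697 to 4117128 on the minus strand. One *klf6a* transcript had 25.4 FPKM at 12 hpi and 15.9 FPKM at 4 dpi + VPA, against 4.64 FPKM in uninjured retina. The gene as a whole had 21.5 FPKM at 4 dpi, against 6.52 FPKM in uninjured retina. In the authors' deposited tables its log2 fold change was 2.45 at 12 hpi (SE 0.88, p = 0.0079, q = 0.997), 1.77 at 4 dpi + VPA (SE 0.89, p = 0.0467, q = 0.997) and 1.72 at 4 dpi (SE 0.75, p = 0.01995, q = 0.999). The SE is the deposited log2 fold change over the authors' test statistic. Of the 3 genes listed at both times, *klf6a* alone had a larger fold over uninjured retina at 12 hpi, where the value is of a transcript, than at 4 dpi, where it is of the gene.

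*sox11b*, which encodes a high-mobility-group transcription factor of developing neurons and progenitors, lies on chromosome 20 from 30128699 to 30181234 on the minus strand. It had 46.1 FPKM at 4 dpi + VPA and 74.1 FPKM at 4 dpi, against 6.0 FPKM in uninjured retina. These are folds of 7.68 and 12.4, in that order. The log2 fold change in the authors' deposited tables was 2.94 at 4 dpi + VPA (SE 0.84, p = 0.0005, q = 0.415) and 3.63 at 4 dpi (SE 0.84, p = 5e-05, q = 0.0421). It was not listed at 12 hpi. Entries listed higher there with an uninjured level within 2-fold of that of *sox11b* had log2 fold changes of at least 1.46 (84 entries), so a change below about that size would not have been listed, and its level at 12 hpi is not known.

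*gap43* encodes a membrane protein of growth cones that is widely used as a mark of growing axons. It lies on the unplaced scaffold KN150239.1 from 1 to 14235 on the plus strand, so the gene model may be incomplete at the scaffold's edge. *gap43* had 36.5 FPKM at 12 hpi, 57.1 FPKM at 4 dpi + VPA and 45.5 FPKM at 4 dpi, against 3.89 FPKM in uninjured retina. The folds were 9.38, 14.7 and 11.7 in that order. The log2 fold changes in the authors' deposited tables were 3.23 at 12 hpi (SE 0.98, p = 0.0107, q = 0.997), 3.88 at 4 dpi + VPA (SE 0.96, p = 0.00445, q = 0.997) and 3.55 at 4 dpi (SE 0.96, p = 0.0072, q = 0.749). The authors' p at 12 hpi was 11.0 times the p that a normal distribution gives for that statistic, so the SE understates the uncertainty. The 3 injured values of *gap43* differed from one another by less than 1 SE, and their order cannot be read.

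Among the alpha tubulins, *tuba1a*, the neuronal alpha tubulin named above, lies on chromosome 23 from 35609927 to 35612595. *tuba1b* follows it on the same strand, from 35614754 to 35617716, with 2158 bases between the gene models. *tuba1a* had 73.8 FPKM at 4 dpi + VPA and 263 FPKM at 4 dpi, against 14.2 FPKM in uninjured retina. *tuba1b* had 73.0 FPKM at 4 dpi + VPA (transcript), against 25.2 FPKM in uninjured retina. As a gene it had 109 FPKM at 4 dpi, against 27.1 FPKM in uninjured retina. Of the neighbours, *tuba1b* was thus the higher in uninjured retina, *tuba1a* was the higher at 4 dpi, and at 4 dpi + VPA they stood at about the same level. In the authors' deposited tables *tuba1a* changed on the log2 scale by 2.38 at 4 dpi + VPA (SE 0.74, p = 0.0019, q = 0.915) and 4.21 at 4 dpi (SE 0.82, p = 0.0001, q = 0.0726). *tuba1b* had 1.54 at 4 dpi + VPA (SE 0.73, p = 0.0296, q = 0.997) and 2.01 at 4 dpi (SE 0.74, p = 0.00775, q = 0.771) in the authors' deposited tables. Neither was listed at 12 hpi, where entries of like uninjured level were listed from a log2 fold change of 1.40 upwards. Tubulin coding sequences are close copies of one another, and how the authors' counting shared reads between them is not known, so the split between tubulin genes is less certain than their sum.

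*tuba8l*, which carries the symbol tuba5 in the name table used here for the same gene ID, had the largest fold of the 9 in each comparison. It lies on chromosome 8 from 28326213 to 28330720 on the minus strand. *tuba8l* had 36.8 FPKM at 12 hpi, 70.3 FPKM at 4 dpi + VPA and 65.3 FPKM at 4 dpi, against 1.82 FPKM in uninjured retina. These were folds of 20.2, 38.5 and 35.8, from the lowest uninjured level of the 9. The log2 fold changes in the authors' deposited tables were 4.33 at 12 hpi (SE 0.95, p = 0.00165, q = 0.864), 5.27 at 4 dpi + VPA (SE 0.95, p = 0.0006, q = 0.477) and 5.16 at 4 dpi (SE 0.95, p = 0.0007, q = 0.289). At 4 dpi it ranked 45 of the 780 entries listed higher with a finite fold change. Its p at 4 dpi + VPA was 17615 times the one that a normal distribution gives for its statistic, the largest such ratio among the 9, where the median ratio was 2.87. At 4 dpi the ratio was 845 for *tubb5* and 310 for *tuba1a*, so their SEs there understate the uncertainty too. At 4 dpi + VPA the ratios of these genes were 12.1 and 1.40, in that order. *tuba8l3*, another alpha tubulin, on chromosome 9 from 7684247 to 7695465, was listed at 4 dpi alone, with 20.9 FPKM, against 3.61 FPKM in uninjured retina. For *tuba8l3* the authors' deposited table gives a log2 fold change of 2.53 with SE 0.89 (p = 0.0109, q = 0.897). It had the lowest level of the 6 tubulins at 4 dpi.

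Among the beta tubulins, *tubb5*, on chromosome 16 from 10427991 to 10436718, had 63.2 FPKM at 4 dpi + VPA and 224 FPKM at 4 dpi, against 7.87 FPKM in uninjured retina. Its folds were 8.03 and 28.4, and at 4 dpi it ranked 69 of 780 by log2 fold change. In the authors' deposited tables the log2 fold change of *tubb5* was 3.01 at 4 dpi + VPA (SE 0.78, p = 0.0015, q = 0.835) and 4.83 at 4 dpi (SE 0.89, p = 5e-05, q = 0.0421). *tubb2b*, whose row also carries the gene name tubb4b, lies on chromosome 8 from 52726939 to 52729618 and was the most abundant of the 9 in uninjured retina. It had 292 FPKM at 4 dpi, against 88.7 FPKM in uninjured retina, which the authors' deposited table gives as a log2 fold change of 1.72 with SE 0.81 (p = 0.0316, q = 0.999). *tubb2b* had the smallest fold of the 9 at 4 dpi, 3.29, close to the 3.30 of *klf6a*. It was not listed at 4 dpi + VPA, where the 48 entries of like uninjured level that were listed higher started at a log2 fold change of 1.55.

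**Figure D2:**
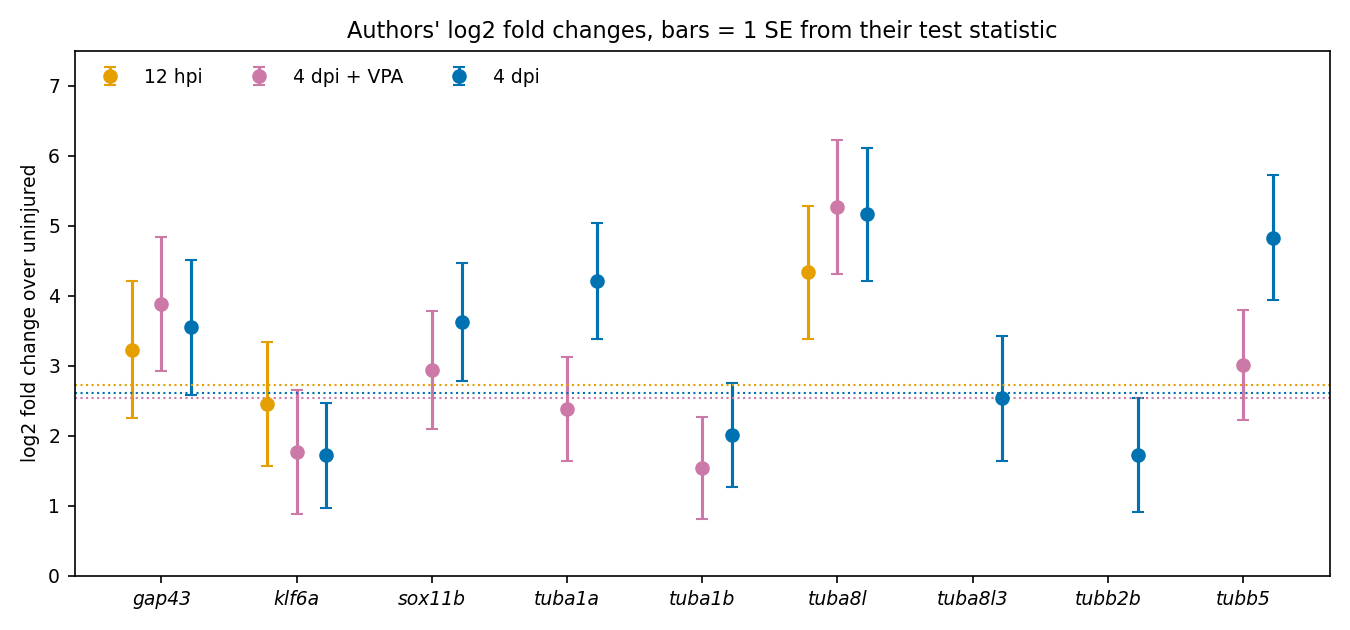
Authors' log2 fold change over uninjured retina of the 9 genes at 12 hpi, 4 dpi + VPA and 4 dpi. Bars are 1 SE from the authors' test statistic. Dotted lines in the same colours are the medians of all entries listed higher with a finite value (2.73, 2.54 and 2.61). *tuba8l* is above the lines in each comparison, while *klf6a*, *tuba1b*, *tuba8l3* and *tubb2b* lie below the line of their comparison wherever they are listed.

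At 4 dpi the 6 tubulins summed to 974.8 FPKM, against 143 FPKM in uninjured retina, 6.80-fold higher. The make-up of the sum differed between the groups in the deposited values. The shares rest on the uncertain split of reads between tubulin genes, and none has an error. *tubb2b* was 30.0% of it at 4 dpi, against 61.9% in uninjured retina. *tuba1a* was 27.0% at 4 dpi, against 9.91% in uninjured retina, and *tubb5* was 23.0%, against 5.49%. *tuba1b* was 11.2% at 4 dpi, against 18.9% in uninjured retina, and *tuba8l* was 6.70%, against 1.27%. In these values the single gene that made up most of the uninjured sum was joined at 4 dpi by *tuba1a* and *tubb5* at about its own level. The 4 alpha tubulins summed to 459 FPKM at 4 dpi, against 46.8 FPKM in uninjured retina, and the 2 beta tubulins to 516 FPKM at 4 dpi, against 96.5 FPKM in uninjured retina. Other tubulin genes, listed or not, are in none of these sums. Each of the 6 was listed higher at 4 dpi, so a rise of their sum was fixed by the choice of genes. Neither the fold nor the make-up of the sum describes all tubulin RNA of the retina.

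The 4 tubulins of the 9 genes that were listed both with and without VPA, *tuba1a*, *tuba1b*, *tuba8l* and *tubb5*, summed to 280.4 FPKM at 4 dpi + VPA and 661.7 FPKM at 4 dpi. The uninjured sum was 49.1 FPKM in the transcript tables and 51.0 FPKM in the gene tables, which gives folds of 5.71 at 4 dpi + VPA and 13.0 at 4 dpi. At 4 dpi + VPA each of the 4 genes held between 22.6% and 26.3% of the sum. At 4 dpi *tuba1a* held 39.8% and *tubb5* 33.8%. These shares too rest on the split of reads between tubulin genes. The gap between the sums lies mostly in *tuba1a* and *tubb5*, whose intervals between these groups hold 0 (below). The *tuba1b* part is of a transcript at 4 dpi + VPA and of the gene at 4 dpi. All 4 genes were listed higher in both groups, so each sum had to exceed the uninjured one. Other listed tubulin genes, given below, are not in the sums and went both ways between the groups.

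**Figure D3:**
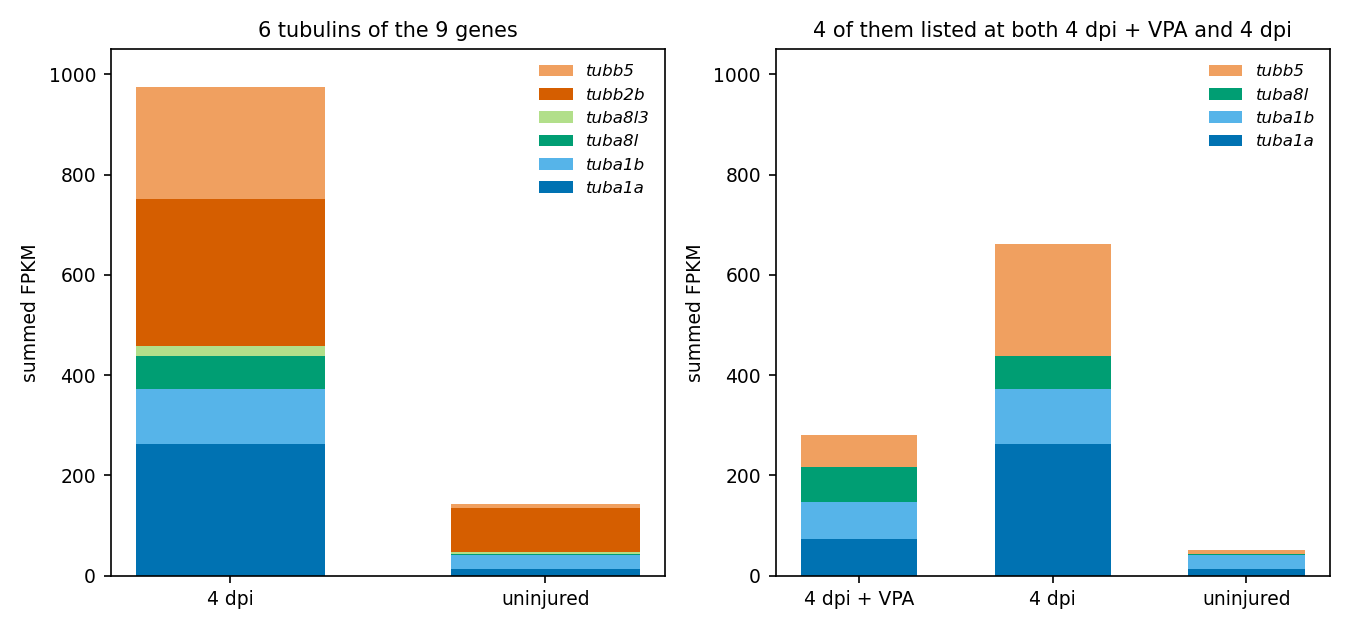
Summed FPKM of the tubulin genes, stacked by gene: on the left the 6 tubulins of the 9 genes at 4 dpi and in uninjured retina, on the right the 4 of them listed in both 4-day groups, at 4 dpi + VPA, 4 dpi and in uninjured retina. The left sums are 974.8 FPKM at 4 dpi and 143 FPKM in uninjured retina, and the right sums 280.4 FPKM at 4 dpi + VPA, 661.7 FPKM at 4 dpi and 51.0 FPKM in uninjured retina (gene value).

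The retinae with and without VPA at 4 days were then set side by side for the 5 of the 9 genes listed in both with the same uninjured value. *tuba1a* at 4 dpi + VPA was 0.280 times its level at 4 dpi, a log2 difference of -1.83 (SE 1.11, 95% interval -4.01 to 0.34). *tubb5* was 0.282 times its level at 4 dpi, a log2 difference of -1.82 (SE 1.19, interval -4.15 to 0.50). These were 15 and 16 from the lowest among the 193 genes listed higher in both groups with the same uninjured value, whose median difference was -0.20 with quartiles of -0.70 and 0.15. *sox11b* differed by -0.69 (interval -3.02 to 1.65), *tuba8l* by 0.11 (interval -2.54 to 2.75) and *gap43* by 0.33 (interval -2.33 to 2.98). *tuba1a* and *tubb5* thus lay in the lower tail of these genes, *sox11b* near the lower quartile, *tuba8l* between the quartiles and *gap43* above the upper one. Every one of the 5 intervals holds 0, so none of the 5 was shown to differ at this precision. The SE combines those of both comparisons as if they shared no control, which can make it too large. It also inherits the limits of the authors' statistic, which can make it too small. *klf6a* and *tuba1b* were listed as a gene at 4 dpi and as a transcript at 4 dpi + VPA, and relative to the uninjured value of the same table they differed by 0.05 and -0.48 on the log2 scale.

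**Figure D4:**
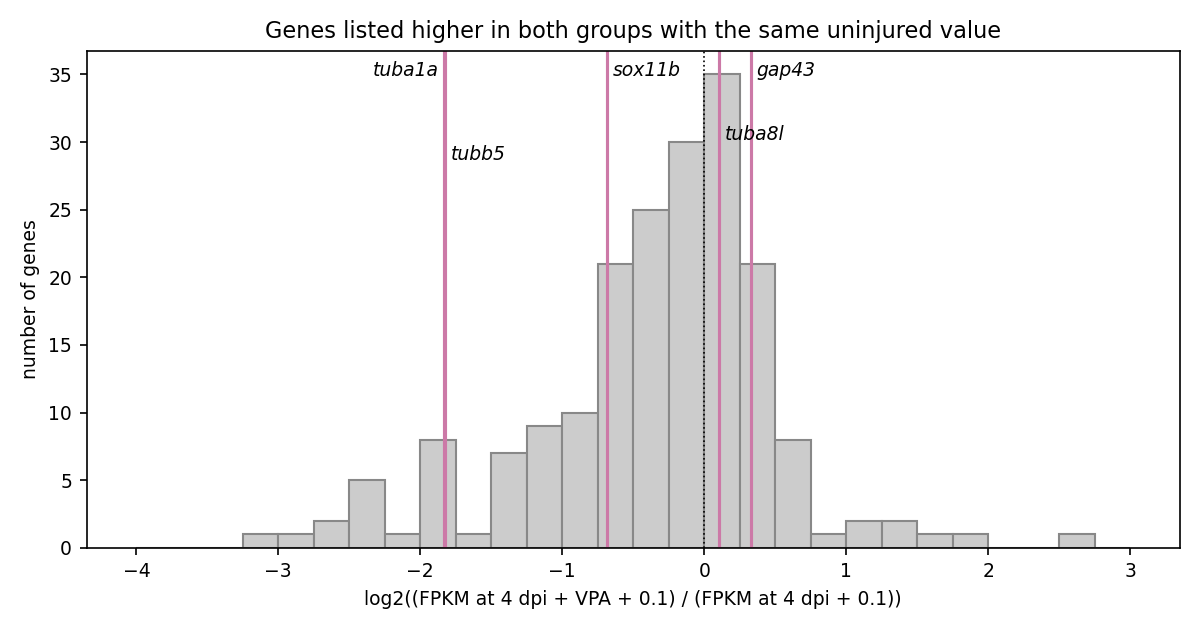
Histogram of log2((FPKM at 4 dpi + VPA + 0.1)/(FPKM at 4 dpi + 0.1)) over the 193 genes listed higher in both groups with the same uninjured value; lines mark the 5 genes described here, and the dotted line is no difference. The lines of *tuba1a* and *tubb5* fall together near -1.83, *sox11b* is at -0.69, *tuba8l* at 0.11 and *gap43* at 0.33.

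Between the time points, *gap43* at 4 dpi differed from 12 hpi by 0.32 on the log2 scale (SE 1.37) and *tuba8l* by 0.83 (SE 1.35). The 56 genes listed higher at both times with the same uninjured value had a median difference of 0.09. The transcript of *klf6a* at 4 dpi + VPA differed from 12 hpi by -0.68 (SE 1.25). None of the 13 differences between injured groups computed for the 9 genes had a 95% interval without 0.

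Markers of several cell types moved in the same comparisons, and in whole-retina RNA a change in the number of cells of a type and a change in RNA per cell cannot be told apart. Of all genes listed, 63.6% of 599 were higher at 12 hpi, 57.4% of 1036 at 4 dpi + VPA and 60.3% of 1434 at 4 dpi. Marker counts are to be read against these totals. Of 20 ganglion cell markers 1 was listed at 12 hpi, *rbpms2b*, with 9.19 FPKM at 12 hpi, against 36.2 FPKM in uninjured retina. At 4 dpi 1 was listed, the precursor gene *atoh7*, with 11.3 FPKM, against 1.15 FPKM in uninjured retina, and at 4 dpi + VPA 0 were. Of 30 markers of proliferating progenitors 0 were listed at 12 hpi, 5 at 4 dpi + VPA and 19 at 4 dpi, all higher. The listed markers summed to 45.9 FPKM at 4 dpi + VPA, against 6.59 FPKM in uninjured retina, and to 450 FPKM at 4 dpi, against 43.4 FPKM in uninjured retina. The 5 listed in both summed to 45.9 FPKM at 4 dpi + VPA (transcripts), against 6.59 FPKM in uninjured retina. As genes they summed to 138 FPKM at 4 dpi, against 7.44 FPKM in uninjured retina. The progenitor sum was thus lower at 4 dpi + VPA than at 4 dpi, with transcripts set against genes. Of the 9 genes with the same uninjured value in both, *tuba1a*, *tubb5* and *sox11b* had lower deposited values with VPA. Those of *gap43* and *tuba8l* were higher, and each of these intervals holds 0. The part of progenitors in the levels of these genes was not tested.

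Müller glia, the source of those progenitors, had 1 of 16 markers listed at 12 hpi, lower, and 4 each at 4 dpi + VPA and 4 dpi, higher. Of these *gfap* had 46.3 FPKM at 4 dpi + VPA and 84.5 FPKM at 4 dpi, against 10.2 FPKM in uninjured retina. Of 25 macrophage and microglia markers 2 were listed at 12 hpi, 10 at 4 dpi + VPA and 13 at 4 dpi, all higher. The 9 listed in both 4-day groups summed to 787 FPKM at 4 dpi + VPA (transcripts), against 68.0 FPKM in uninjured retina. As genes they summed to 684 FPKM at 4 dpi, against 86.0 FPKM in uninjured retina. Of 15 oligodendrocyte and optic nerve markers 3 were higher at 4 dpi, and 1, *mbpa*, was lower at 4 dpi + VPA. Red blood cell markers were listed at 12 hpi alone, 2 of 12, higher. Of 26 photoreceptor and inner retina markers the 5 listed at 12 hpi and the 4 each at 4 dpi + VPA and 4 dpi were lower than in uninjured retina. That list was added after the tables were read and leaves out the photoreceptor gene *nr2e3*, which was listed higher in each comparison. With 0.1 FPKM added to both values, its log2 difference was 2.59 at 12 hpi, 1.86 at 4 dpi + VPA and 1.63 at 4 dpi.

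Lens markers, mostly crystallin genes, were listed higher in each comparison, 6 of 22 each time. They summed to 349 FPKM at 12 hpi, 726 FPKM at 4 dpi + VPA and 158 FPKM at 4 dpi, against 3.04 FPKM in uninjured retina, where 4 of the 6 were at 0. The part of lens RNA in the levels of the 9 genes was not tested.

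To place the 9 genes among others, the genes with the most similar log2 changes over the comparisons in which each was listed were found by Euclidean distance. Over 2 comparisons, with 654 genes to choose from, the nearest to *sox11b* was *uhrf1*, a DNA methylation maintenance factor of dividing cells (distance 0.0915), then *NES* and *atad2*. The nearest to *tuba1a* were FP236812.1 (0.121), the histone gene *hist2h3c* and *ccnd1*, a cyclin. Those nearest to *tubb5* were si:ch211-222l21.1 (0.161), *kif11*, a mitotic kinesin (0.189), and zgc:55461, another beta tubulin gene (0.260). *tuba1b* lay nearest to the ribosomal protein genes *rpl28* (0.0910), *rpl36* and *rpl36a*. Over 3 comparisons, with 155 genes to choose from, *klf6a* lay nearest to *nr2e3*, a photoreceptor nuclear receptor gene (0.213), *sdc4* and *SBNO2*. *gap43* lay nearest to zgc:92066 (0.349), zgc:198419 and *il4r.1*. *tuba8l* had no close match, and its nearest were *cryabb*, a crystallin gene (1.25), the connexin gene *cx44.1* and *mych*. All these comparisons share the uninjured values, and over so few points many genes lie close by.

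The deposited annotation holds further genes of the tubulin family that are not among the 9, and those listed were higher. The alpha tubulin gene si:ch211-114n24.6 had 62.2 FPKM at 4 dpi + VPA and 41.4 FPKM at 4 dpi, against 8.99 FPKM in uninjured retina. The beta tubulin gene zgc:55461 had 6.19 FPKM at 4 dpi + VPA and 17.9 FPKM at 4 dpi, against 0.563 FPKM in uninjured retina. The epsilon tubulin gene *tube1* had 1.63 FPKM at 4 dpi and was listed at 0 in uninjured retina. An alpha tubulin gene that the tables list under a clone name, and whose gene ID (ENSDARG00000094466) is tuba8l5 in the name table, had 2.35 FPKM at 4 dpi + VPA, and its uninjured value was close to 0, so no fold is given. The gene ontology term "microtubule-based process" was carried by 1 gene listed at 12 hpi, 7 at 4 dpi + VPA and 9 at 4 dpi, all higher. Of these 1, 4 and 6 were among the 9. Of all listed genes 63.6%, 57.4% and 60.3% were higher, in the same order. The term "optic nerve formation" was carried by 1, 2 and 3 listed genes in that order. They included *klf6a* in each comparison and *tuba1a* in both 4-day ones. These terms were picked from several that were counted. Among the others, "response to wounding" was carried by 2, 4 and 4 listed genes in that order, of which 0, 1 and 1 were among the 9.

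The other genes of axon regrowth and the cytoskeleton were taken from 10 lists of 400 genes. At 12 hpi 27 were listed higher, 4 lower and 2 with entries of the same name in both directions. At 4 dpi + VPA 31 were higher, 8 lower and 1 in both directions, and at 4 dpi 35 were higher and 12 lower. The median log2 difference of the listed ones, with 0.1 FPKM added to both values, was 2.67 at 12 hpi, 2.16 at 4 dpi + VPA and 2.03 at 4 dpi. Over all listed genes it was 2.17, 1.79 and 1.93 in the same order. The share of all listed genes that were higher was 63.6% of 599 at 12 hpi, 57.4% of 1036 at 4 dpi + VPA and 60.3% of 1434 at 4 dpi. Counts here and below are to be read against these totals.

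The list of transcription factors of axon regrowth had the most members listed at 12 hpi, 13 of 51, all higher. At 4 dpi + VPA 10 were higher and 2 lower, and at 4 dpi 9 were higher and 2 lower. Whole-retina levels do not say which cells made these RNAs, so a change in neurons was not shown. *atf3*, a stress-induced factor of injured neurons, had 81.8 FPKM at 12 hpi, 24.2 FPKM at 4 dpi + VPA and 26.6 FPKM at 4 dpi, against 0.952 FPKM in uninjured retina. *jun*, an AP-1 subunit that takes part in the regrowth programme of injured neurons, had 101 FPKM at 4 dpi + VPA and 90.9 FPKM at 4 dpi, against 6.21 FPKM in uninjured retina. The *jun* gene was listed higher at 12 hpi too. With 0.1 FPKM added to both values, its log2 difference from 12 hpi was -0.55 at 4 dpi + VPA and -0.69 at 4 dpi. The deposited values of *atf3* and *jun* were highest at 12 hpi, and so was that of *klf6a*. For *klf6a* the log2 differences from 12 hpi were -0.68 at 4 dpi + VPA (SE 1.25) and -0.24 at 4 dpi (SE 1.16). The 4 dpi value is of the gene and the others of a transcript, so the order of the *klf6a* values cannot be read. Of 57 signalling genes 8 were higher at 12 hpi, 1 was lower and 1 had entries in both directions. At 4 dpi + VPA 5 were higher and 1 was lower, and at 4 dpi 4 were higher and 4 lower. *crlf1a*, a cytokine receptor-like gene, had 43.6 FPKM at 12 hpi, 18.0 FPKM at 4 dpi + VPA and 29.3 FPKM at 4 dpi, against 0.659 FPKM in uninjured retina. *anxa2a*, an annexin, had 129 FPKM at 4 dpi + VPA and 108 FPKM at 4 dpi, against 3.85 FPKM in uninjured retina. It was listed higher at 12 hpi too, and by the same measure differed from 12 hpi by 2.52 at 4 dpi + VPA and 2.26 at 4 dpi.

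Growth cone and actin genes were listed higher only, 4 of 55 at 12 hpi, 8 at 4 dpi + VPA and 9 at 4 dpi. *marcksb*, which encodes an actin-binding protein of the growth cone membrane, had 39.6 FPKM at 4 dpi + VPA (transcript), against 8.60 FPKM in uninjured retina. Its gene value was 107 FPKM at 4 dpi, against 9.98 FPKM in uninjured retina. *coro1a* is an actin regulator that is also a leukocyte gene. It had 11.7 FPKM at 12 hpi, 33.6 at 4 dpi + VPA and 23.0 at 4 dpi, against 3.32 FPKM in uninjured retina. Of 40 genes that fold or modify tubulin 0 were listed at 12 hpi, 4 at 4 dpi + VPA and 4 at 4 dpi, all higher. Those of 4 dpi were *cct3*, *cct4*, *cct8* and *tcp1*, subunits of the chaperonin that folds tubulin and actin. *cct3* had 103 FPKM at 4 dpi, against 34.5 FPKM in uninjured retina. *tbcb*, a tubulin folding cofactor, was listed at 4 dpi + VPA with 36.3 FPKM, against 11.8 FPKM in uninjured retina.

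Of 65 microtubule-associated and stathmin genes few were listed, 1 at 12 hpi and 3 each at 4 dpi + VPA and 4 dpi. The stathmin genes *stmn1a* and *stmn4l*, whose proteins bind tubulin dimers, were higher at 4 dpi: *stmn1a* had 44.1 FPKM, against 1.47 FPKM in uninjured retina, and *stmn4l* 58.8 FPKM, against 15.2 FPKM in uninjured retina. An orthologue of *MAP4*, a microtubule-stabilising protein, had 3.29 FPKM at 4 dpi, against 30.1 FPKM in uninjured retina. Its transcript was lower too at 12 hpi (7.54 FPKM) and at 4 dpi + VPA (5.15 FPKM), while a second gene that carries the same name was listed higher in both of those tables. Of 80 guidance and adhesion genes 2 were higher at 12 hpi and 3 were lower, at 4 dpi + VPA 1 was higher and 3 were lower, and at 4 dpi 2 were higher and 4 lower. *alcamb*, an adhesion molecule of growing retinal axons, had 10.1 FPKM at 12 hpi, 10.1 FPKM at 4 dpi + VPA and 23.9 FPKM at 4 dpi, against 1.38 FPKM in uninjured retina. *ptprsa*, a receptor phosphatase gene, was lower, with 4.40 FPKM at 4 dpi, against 30.0 FPKM in uninjured retina.

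Of 18 genes of gamma tubulin and microtubule nucleation 3 were listed at 4 dpi, 2 higher and 1 lower. Among them *tpx2*, a spindle protein gene, had 25.4 FPKM at 4 dpi, against 0.601 FPKM in uninjured retina. The lower one, *akap9*, had 5.51 FPKM at 4 dpi, against 17.9 FPKM in uninjured retina. Of 13 neurofilament and other intermediate filament genes 3 were listed in both 4-day groups, all higher, and these were the glial and progenitor genes *gfap*, *vim* and *NES*. No neurofilament subunit gene was listed in any comparison. Under the symbols on those lists, 0 of 11 other alpha tubulins and 0 of 10 other beta tubulins were listed. The alpha and beta tubulins described above from the family annotation were listed under other names.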

How the data were processed

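Total RNA of whole retina was measured in 4 groups with 1 deposited value each. Per the submitters' processing notes, the tools were Cufflinks 2.2.1, TopHat2 2.1.0 and Bowtie2 2.2.2, and the genome build was GRCz10. The deposited FPKM values, log2 fold changes (no pseudocount), test statistics (a score), p-values and q-values were computed by the authors, per the file headers, and the 6 deposited tables hold only entries with a p-value of at most 0.05. Their q-values were not recomputed. The number of genes tested and the depth per library are not known from these tables.

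With 1 value per group no test was run. The SE is the deposited log2 fold change over the test statistic, and 95% intervals assume a normal distribution. Of several entries of a gene the one with the highest mean FPKM was used. List medians and distances use log2((FPKM + 0.1)/(uninjured FPKM + 0.1)). List genes were matched by symbol without regard to case, then by gene ID. Genes named from 10 pathway lists were among the 4 largest changes per list and comparison with at least 5 FPKM in the higher group. Those from the cell marker lists were among the 2 largest, except *gfap*, which was named through the intermediate filament list. For likeness the 3 nearest were named. The other tubulin family genes and *tube1* were found through the deposited family annotation and were chosen after their values were seen. The 9 genes and all lists were chosen with earlier results of these data known, and the photoreceptor and inner retina list was added after the tables were read. Python 3.11.15, numpy 2.4.6, pandas 2.3.3 and matplotlib 3.10.9 were used, and the scripts were tested on simulated data.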

Additional observations from a re-analysis of the deposited data

How the results depend on the processing

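Counting only entries that the authors marked significant left 0 of the 9 genes at 12 hpi, 0 at 4 dpi + VPA and 2 at 4 dpi. Of the genes of the 10 other lists it left 0, 0 and 2 higher, in the same order of groups, and 0, 0 and 0 lower. At a p-value of at most 0.01, 2 of the 9 genes were higher at 12 hpi, 5 at 4 dpi + VPA and 6 at 4 dpi, where 21.5%, 16.4% and 24.3% of all listed genes were higher at that limit. At the same limit the higher genes of the 10 other lists numbered 13 at 12 hpi, 14 at 4 dpi + VPA and 16 at 4 dpi, and the lower ones 0, 1 and 4. Fewer entries pass a stricter limit by its construction. Many of the 308 alternatives computed were counts or shares, which cannot turn a sign, or settings that could not move a value. A sign turned in 1, the log2 difference of *klf6a* between 4 dpi + VPA and 4 dpi. It was -0.44 on the FPKM as deposited and 0.05 relative to the uninjured value of the same table, both smaller than its SE of 1.16. The 4 dpi table holds the gene and the other a transcript. The median of the listed gamma tubulin and nucleation genes at 4 dpi, 4.12, moved most. It was 1.40 with a pseudocount of 1 FPKM and 5.38 with 0.01 FPKM. With a minimum of 0.01 FPKM in uninjured retina it was 1.75. Between pseudocounts of 1 and 0.01 FPKM, the 19 log2 differences of the 9 genes against uninjured retina moved by -0.54 to 0.07. A minimum of 0.01 FPKM in uninjured retina could not move them, as the lowest uninjured value of the 9 was 1.82 FPKM. Summing the entries of a gene could not either, as each of the 9 had 1 entry per comparison. Restricting the differences between injured groups to genes with the same uninjured value was chosen after seeing the data. Leaving out a replicate was not run, as the tables hold 1 value per group. No paired analysis was possible because the groups have 1 deposited value each and share no replicate numbers beyond the first. Depth is unknown, so a gene that was not listed cannot be called unchanged.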
